A study of Mus musculus with 12 samples.

Results

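The comparison described here sets cardiomyocytes that carried a hairpin against Uhrf1 beside cardiomyocytes with a scrambled hairpin, both from the left ventricles of sham-operated mice. It uses 6 of the 12 arrays of the series, 3 labelled sham with sh-Uhrf1 #1 (shUhrf1) and 3 labelled sham with the scrambled shRNA (shControl), chosen by their titles alone. All 6 came from male C57Bl6/J mice labelled 8 weeks old. The animals were infected as pups, at 10 days of age, with an adeno-associated virus of serotype 9 (AAV9) encoding one of the hairpins and operated on 2 months later. The labels do not say to which of these times the age refers. The titles give 1 week after surgery. The other 6 arrays carry the same hairpins after transverse aortic constriction (TAC), in which a ligature on the aorta loads the left ventricle with pressure, and give the same hairpin comparison on separate arrays. A single hairpin sequence was used against Uhrf1, and the labels do not name the promoter that drove it. The series was run in triplicate, and the labels do not say whether 3 arrays of a group were 3 animals, so every p measures the spread between arrays, which may be technical.

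Uhrf1 encodes a nuclear protein that binds the hemimethylated CpG sites left behind a replication fork and brings the DNA methyltransferase Dnmt1 to them, so that a methylation pattern is copied to the new strand. It has also been studied as a silencer of transposons, imprinted genes and germline genes. Adult cardiomyocytes seldom divide, and genes of replication, Uhrf1 among them, are usually low in them. The sham comparison asks what the hairpin does in hearts that were not overloaded.

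Of the 45281 probes on the array, 15118 were detected on at least 3 of the 12 arrays, where detected means a deposited detection p under 0.01, and these stand for 8746 named genes. Values are log2 intensities after background correction and quantile normalization, and differences are shUhrf1 minus shControl on that scale with the standard error of the fit. The 3 sham shControl arrays detected 12872, 12979 and 12309 probes and the 3 sham shUhrf1 arrays 13792, 13113 and 13180. Every shUhrf1 array was above every shControl array, a difference of 641.7 probes. An exact two-sided permutation test gave p = 0.1, the smallest that 3 against 3 arrays allow. The brightest probe read 31049 to 33280 intensity units on the shControl arrays and 36224 to 39770 on the shUhrf1 arrays, before normalization. On the TAC arrays it read 28639 to 33124 with shControl and 36609 to 39036 with shUhrf1, so this raw reading followed the hairpin in both sets. Correlations between the sham arrays ran from 0.976 to 0.987, within and between the groups.

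Cardiomyocyte markers were present on every sham array, with 25 or 26 of the 26 markers on the array detected. Their mean deviation from the average of all 12 arrays was -0.14 to -0.08 with shControl and -0.02 to 0.08 with shUhrf1 (log2), so the groups did not overlap. Markers of other cells were present too: 12 of 16 endothelial markers and 9 of 13 macrophage markers were detected on each shControl array, among them Pecam1 and Adgre1, while Kdr, Postn and all 7 adipocyte markers were detected on no sham array. Sham shUhrf1 array 2 stood apart. Its endothelial deviation was -1.15 against 0.07 and 0.13 on arrays 1 and 3 of its group and -0.66 to -0.39 on the shControl arrays. The same array was lowest for fibroblast markers (-1.58, with -0.40 and -0.39 beside it) and for macrophage markers (-1.52, with -0.37 and -0.31 beside it). In such bulk preparations fewer cells of a type and less RNA per cell cannot be told apart.

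**Figure D1:**
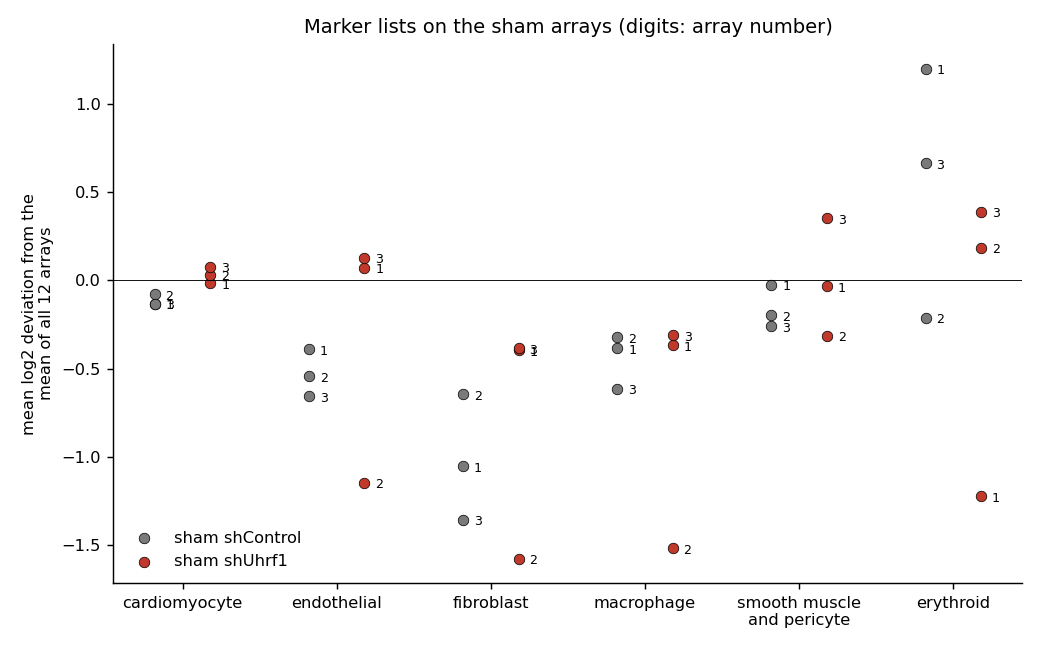
Marker lists on the 6 sham arrays: mean log2 deviation of each list's tested members from the mean of all 12 arrays, 1 point per array, digits giving the array number. Array 2 of shUhrf1 lies lowest for endothelial, fibroblast and macrophage markers, and the shUhrf1 points lie above the shControl points for cardiomyocyte markers.

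The target of the hairpin was not measurable in sham cells. The probe that reads Uhrf1 after TAC gave 4.98, 4.89 and 4.76 on the shControl arrays and 4.74, 4.41 and 4.46 on the shUhrf1 arrays (log2 intensity). All 6 values were below the detection limit, and so were all 6 of the other Uhrf1 probe. The shUhrf1 values lay below the shControl values, a difference of -0.34 ± 0.30 (adjusted p = 0.655), and no fold is given because both groups are background. On the TAC arrays, where shControl cells had it detected 3 times of 3, the difference was -1.35 ± 0.30 (adjusted p = 0.0355). The sham labels therefore rest on the titles, with no check from the target's own level.

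In sham, 4 of the 8746 genes were higher with shUhrf1 (0.0457%) and 0 were lower (0%) at an adjusted p under 0.05. They were ND4L of the mitochondrial genome, Lmod2, Asns and Mxi1. At an unadjusted p under 0.05 there were 1154 genes (13.2%), 566 of them higher (6.47% of all tested) and 588 lower (6.72%). A log2 difference of 1 or more was found for 22 genes upward (0.252%) and for 4 downward (0.0457%).

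Of the called genes 3 are nuclear and have a RefSeq promoter entry, shown here on GRCm38.p6 because CpG sites are the substrate that Uhrf1 reads. Each line is the strand of the gene, 250 bases before to 50 after the start, with each CpG in capitals. Asns lies at chr6:7693160-7693459 on the minus strand, Lmod2 at chr6:24597521-24597820 on the plus strand and Mxi1 at chr19:53310256-53310555 on the plus strand.
Asns: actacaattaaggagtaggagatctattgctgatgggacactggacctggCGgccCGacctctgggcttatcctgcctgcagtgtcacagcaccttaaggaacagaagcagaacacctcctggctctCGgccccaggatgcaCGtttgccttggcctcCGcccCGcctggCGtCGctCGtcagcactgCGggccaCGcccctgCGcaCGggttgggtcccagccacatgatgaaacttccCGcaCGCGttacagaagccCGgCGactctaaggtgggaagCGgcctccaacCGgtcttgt
Lmod2: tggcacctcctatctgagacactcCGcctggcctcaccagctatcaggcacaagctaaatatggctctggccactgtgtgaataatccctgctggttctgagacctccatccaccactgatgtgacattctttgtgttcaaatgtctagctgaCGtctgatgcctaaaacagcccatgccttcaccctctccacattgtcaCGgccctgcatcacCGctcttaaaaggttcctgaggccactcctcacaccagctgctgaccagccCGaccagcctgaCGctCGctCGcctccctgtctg
Mxi1: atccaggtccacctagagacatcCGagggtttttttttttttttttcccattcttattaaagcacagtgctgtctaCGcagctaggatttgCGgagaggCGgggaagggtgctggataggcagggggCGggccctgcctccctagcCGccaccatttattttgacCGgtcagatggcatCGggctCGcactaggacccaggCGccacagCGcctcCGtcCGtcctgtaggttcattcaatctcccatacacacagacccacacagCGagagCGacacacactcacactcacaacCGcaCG
The Asns window holds 20 CpG sites, a count reached by 26.5% of the 32851 windows of this length in the table. The Lmod2 window holds 8, a count reached by 48.6% of windows, and the Mxi1 window holds 17, reached by 31.4%. The median window has 7. The other annotated starts of Mxi1 have 21 and 49. The letters TGATGNAA, the element that ATF4 and C/EBP proteins are known to bind, were searched on both strands and found once in the Asns window, as TGATGAAA starting 23 bases before the start. They were not found in the Lmod2 or Mxi1 windows and occur on either strand in 4.0% of all windows. A match is a run of letters in this window and says nothing of binding in these cells.

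ND4L encodes a subunit of the membrane arm of respiratory complex I and is read from the mitochondrial genome on the same messenger as ND4. Its level was 11.46, 11.56 and 11.50 with shControl and 13.51, 12.97 and 13.54 with shUhrf1. Every shUhrf1 array lay far above every shControl array. The difference was 1.84 ± 0.18, or 3.57-fold (adjusted p = 0.00209). On the TAC arrays the levels were 11.73, 11.83 and 11.71 with shControl and 12.91, 13.31 and 13.49 with shUhrf1, a difference of 1.48 ± 0.18 (adjusted p = 0.00481). ND4L was thus high on all 6 arrays with the Uhrf1 hairpin and low on all 6 with the scrambled one. A test of the difference between the surgeries gave -0.35 ± 0.25 (adjusted p = 0.702).

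Lmod2 encodes leiomodin 2, which nucleates actin at the thin filament ends of heart muscle. It was undetected on the 3 shControl arrays (4.87, 5.05 and 4.70) and detected on the 3 shUhrf1 arrays (5.98, 5.91 and 5.76). The shUhrf1 group was at least 1.44-fold above the detection limit of the shControl arrays, and the fitted difference was 1.01 ± 0.14 (adjusted p = 0.0170). Such a bound takes, for each shControl array, the dimmest detected probe of that array as the level. After TAC Lmod2 was detected on every array, at 5.41, 5.23 and 5.35 with shControl and 6.48, 6.64 and 6.43 with shUhrf1. That difference was 1.19 ± 0.14, or 2.28-fold (adjusted p = 0.00481).

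Asns encodes asparagine synthetase, which makes asparagine from aspartate and is induced when amino acids are short. It read 4.78, 4.70 and 4.92 on the shControl arrays, none of them detected, and 5.62, 6.01 and 5.81 on the shUhrf1 arrays, all detected. The fitted difference was 1.01 ± 0.14 (adjusted p = 0.0170) and the fold was at least 1.37. After TAC the gene was detected on every array with either hairpin, at 6.27, 6.23 and 6.41 with shControl and 6.47, 6.31 and 6.49 with shUhrf1. There the groups overlapped, with a difference of 0.12 ± 0.14 (adjusted p = 0.685). The difference between the surgeries, -0.89 ± 0.20, had an unadjusted p of 0.00053 and an adjusted p of 0.195, so it did not pass.

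Mxi1 encodes a MAX-binding repressor that opposes MYC. Its level was 5.47, 4.78 and 5.60 with shControl, where 2 of 3 arrays detected it, and 6.83, 6.83 and 6.59 with shUhrf1. The shControl arrays were spread widely, with array 2 low, and all lay below the shUhrf1 arrays. The difference was 1.47 ± 0.23, or 2.76-fold (adjusted p = 0.0483). On the TAC arrays the difference was 1.17 ± 0.23 (adjusted p = 0.0239), with 5.10, 5.56 and 5.74 against 6.52, 6.49 and 6.92.

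**Figure D2:**
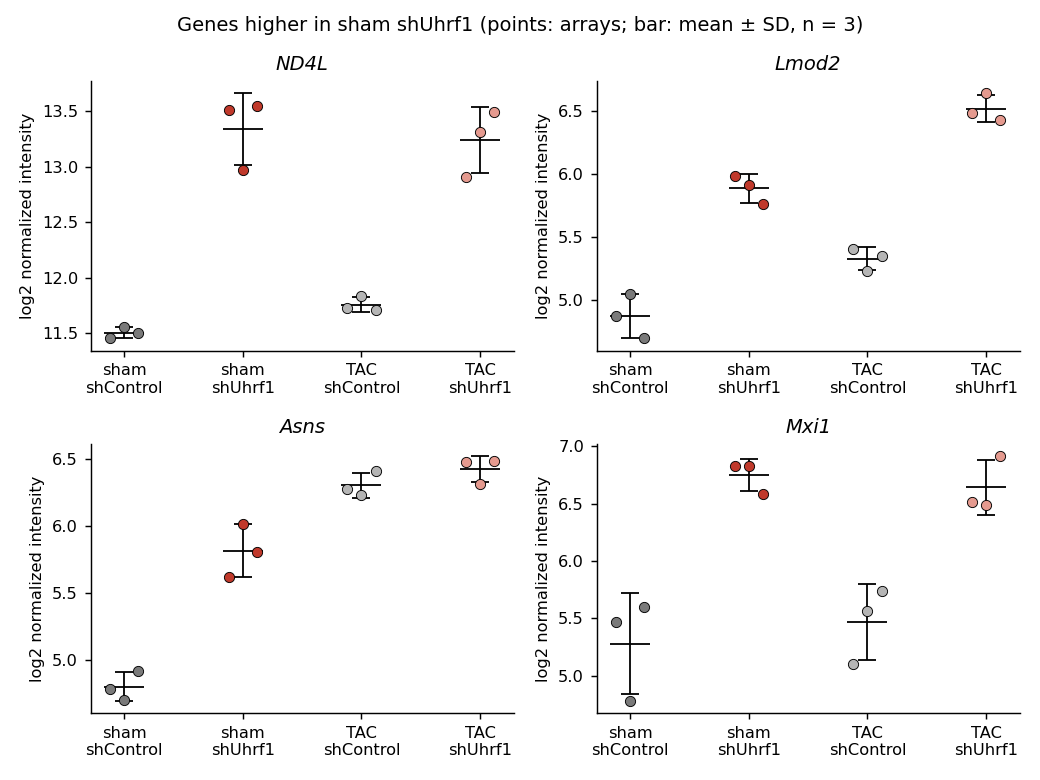
ND4L, Lmod2, Asns and Mxi1 on each array (log2 normalized intensity, axes not starting at 0), with the mean ± SD of the 3 arrays per group. The sham shUhrf1 points lie above all sham shControl points for each gene; after TAC the hairpin groups overlap for Asns alone among the 4.

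Of these calls ND4L passed without any single sham array, with adjusted p from 0.000665 to 0.0248 over the 12 fits that each leave out 1 array. Lmod2 lost its call without shControl array 1 (adjusted p = 0.0578) or 3 (0.0994) and without shUhrf1 array 1 (0.123), 2 (0.0808) or 3 (0.0654). Asns and Mxi1 lost theirs without any 1 of the 6 sham arrays, Asns at 0.0507 to 0.116 and Mxi1 at 0.0607 to 0.150. Mxi1 also lost its call without TAC shControl array 2 (adjusted p = 0.0733) and without TAC shUhrf1 array 1 (0.0588) or 2 (0.0919). With the 6 sham arrays fitted alone, 0 genes passed with limma (1153 at an unadjusted p under 0.05) and ND4L had an adjusted p of 0.0549. When the authors' values were used, 24 genes passed, 12 higher and 12 lower, against 4 and 0 here.

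At the level of probes, 7 of 15118 were called (0.0463%), all higher with shUhrf1. Besides the 4 above they were a dim probe of Trim35, a ubiquitin ligase gene, and 2 probes that are unnamed here. The Trim35 probe differed by 0.88 ± 0.14 (adjusted p = 0.0483). It was undetected on all shControl arrays, and the fold was at least 1.08. The other Trim35 probes that were tested gave -0.05 and -0.26, so the gene as a whole is uncertain. Probe ILMN_1245504 rose from 5.74, 5.97 and 5.63 to 7.25, 7.36 and 7.19, a difference of 1.49 ± 0.18 (adjusted p = 0.00988), and after TAC differed by 1.31 ± 0.18. Probe ILMN_2419660 was among the bright ones, at 13.38, 13.49 and 12.96 against 14.33, 14.34 and 14.46, a difference of 1.10 ± 0.15 (adjusted p = 0.0170).

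The next 8 genes by p among the higher ones did not pass, with adjusted p from 0.0724 to 0.0741. Fosb, a subunit of the AP-1 transcription factor, read 5.46, 5.43 and 5.95 with shControl and 7.38, 6.76 and 6.77 with shUhrf1, a difference of 1.36 ± 0.24. Ndrg4, of the NDRG family, read 7.98, 7.99 and 7.54 against 9.30, 9.19 and 8.95, a difference of 1.31 ± 0.24. In both genes the groups were well apart. Nkiras1, whose product binds the inhibitors of NF-kappaB, was undetected with shControl and detected on all shUhrf1 arrays, at least 1.85-fold apart, with a fitted difference of 1.33 ± 0.24. Adss (adenylosuccinate synthase of purine synthesis) and Ypel4 were likewise undetected on the 3 shControl arrays and detected on the 3 shUhrf1 arrays. Their fitted differences were 0.86 ± 0.16 and 0.87 ± 0.16, but the folds were only bounded, at 1.11 or more and 1.08 or more. Cyb561, an electron carrier of vesicle membranes, differed by 0.70 ± 0.13, Uri1, a prefoldin-like scaffold, by 0.80 ± 0.15, and Ndufb9, an accessory subunit of complex I, by 0.81 ± 0.15. On the TAC arrays Ndrg4 (1.12, adjusted p = 0.0298) and Nkiras1 (1.38, adjusted p = 0.0160) were called, while Adss gave -0.25 and Cyb561 -0.01. Ypel4 was undetected on every TAC array, so its value of 0.16 there compares background with background.

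Among the lower genes none passed, and the 12 with the smallest p had adjusted p from 0.0724 to 0.0996. Slc48a1, a haem transporter of endosomes, read 7.22, 7.33 and 7.13 with shControl and 6.41, 6.49 and 6.32 with shUhrf1, a difference of -0.82 ± 0.14. B4galt3, a galactosyltransferase of the Golgi, read 7.80, 7.91 and 7.89 against 6.92, 7.29 and 7.09 (-0.77 ± 0.14), but its other tested probe gave -0.20. Each of these genes had its 3 shUhrf1 arrays below its 3 shControl arrays. Pop7, a subunit of the RNA-processing enzymes RNase P and RNase MRP, had the tightest arrays, 6.81, 6.67 and 6.79 against 6.11, 6.18 and 6.16, and differed by -0.61 ± 0.12. Of the 12 it alone was called on the TAC arrays (-0.52, adjusted p = 0.0408). The others were Cnksr3 (-0.88), a scaffold protein gene, 2810001G20Rik (-0.81), the glutathione transferase gene Gstp2 (-0.77), Camk2b (-0.76), the beta chain of calcium/calmodulin-dependent kinase II, the ephrin Efnb3 (-0.91), Tram2 (-0.83), Sgsm3 (-0.82), Icam4 (-0.81) and the exporter Abcc5 (-0.77). Tram2 and Icam4 were detected on all shControl arrays and on no shUhrf1 array, at least 1.21-fold and 1.34-fold lower. Efnb3, Tram2 and Abcc5 differed by 0.12 ± 0.19, 0.10 ± 0.18 and 0.15 ± 0.17 after TAC. These lie on the other side of 0 but within 1 standard error of it. Efnb3 and Tram2 were near the detection limit there, each detected on 1 of 3 shControl arrays and 3 of 3 shUhrf1 arrays.

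**Figure D3:**
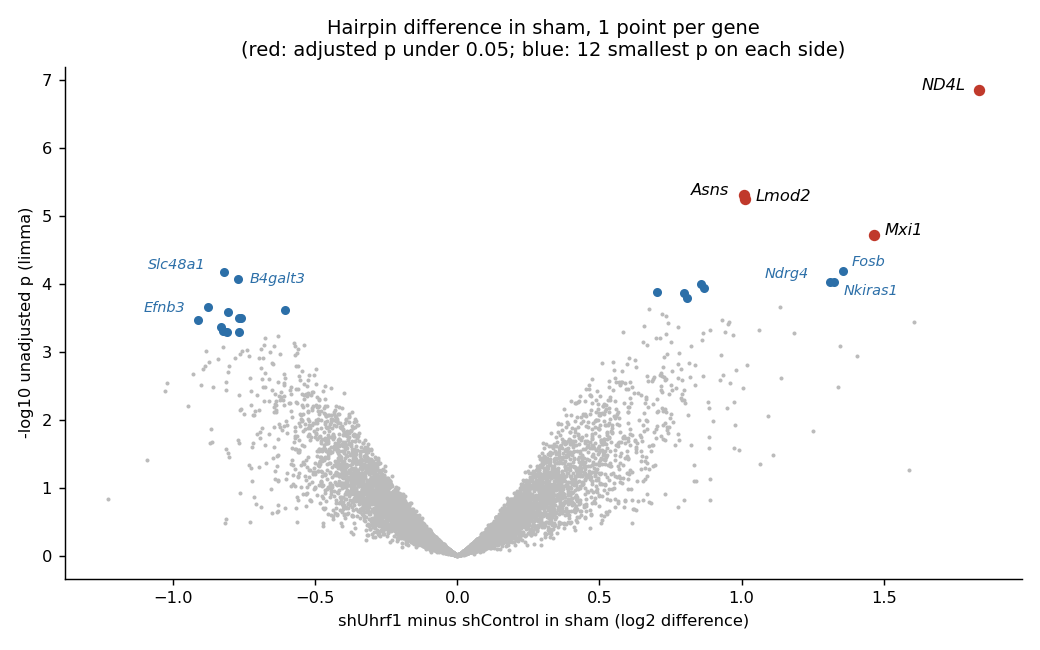
Hairpin difference in sham (log2, x axis) against -log10 of the unadjusted p of limma (y axis), 1 point per gene for 8746 genes. The 4 genes with an adjusted p under 0.05 (red) all lie on the right, and the uncalled genes among the 12 smallest p on each side (blue) lie between 0.61 and 1.36 log2 units from 0.

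The fit leaves a median standard error of 0.18 for a sham difference. For 8024 genes (91.7%) the 95% interval of the difference lies within -1 and 1. These include genes at background in sham, such as Uhrf1 (-0.996 to 0.312), undetected on all 6 sham arrays. For such genes the interval does not bound the change in RNA. Among genes, each read by its brightest tested probe, the smallest difference that was called was 1.01, and the largest that was not was 1.61, for ND6.

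The gene lists below group measured genes by role, and for each the number of members whose 3 shUhrf1 arrays all lie above, or all below, the 3 shControl arrays is given. Over all genes 894 lay above (10.2%) and 911 below (10.4%), and the median difference was -0.0028. Read at the level of arrays, 9 of the 44 lists with a tested member had a mean deviation higher on every shUhrf1 array than on any shControl array, and 2 had it lower. These counts describe the arrays and carry no test. Of the 39 lists whose medians were recomputed, the median changed sign under at least 1 alternative setting or left-out array for 21.

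The mitochondrial DNA encodes core subunits of complexes I, III, IV and V, and ND6 is the one of its protein genes read from the other strand. Of 8 tested genes 1 was called, 6 had all shUhrf1 arrays above and 0 below, and the median was 0.21. ND6 came next to ND4L, with 7.61, 7.24 and 7.05 against 9.31, 8.64 and 8.78. Its difference was 1.61 ± 0.34 (adjusted p = 0.0981), and on the TAC arrays 1.82 ± 0.34 (adjusted p = 0.0198). COX2, a core subunit of cytochrome oxidase, differed by 0.46 ± 0.15 and ATP6 of the ATP synthase by 0.20 ± 0.14, both with separate groups and neither called. ND4 (0.21), CYTB (0.15), ND1 (0.10) and ND5 (-0.32) completed the list and were named after their values were seen. ND4L and ND4 lie on 1 messenger and differ here by 1.84 and 0.21, both as differences within a probe. The probes of ATP6, ND4, CYTB and ND1 were among the brightest on the array. The mean deviation of the list was -0.16 to -0.08 with shControl and 0.32 to 0.52 with shUhrf1. After TAC the median of the list was -0.06, with 2 above and 2 below. Its mean deviation there was -0.43 to 0.06 with shControl and -0.29 to 0.11 with shUhrf1, so the TAC groups overlapped.

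Nuclear subunits of the respiratory chain had medians near 0. Complex I had 34 tested subunits with a median of -0.07, 4 above and 1 below, led by Ndufb9 (0.81) and Ndufb4 (0.70 ± 0.26). Complexes II to V had 36 with a median of -0.03, 6 above and 4 below. Atp5a1, the alpha chain of the ATP synthase, read 11.64, 11.53 and 11.45 against 12.60, 12.33 and 12.28, a difference of 0.86 ± 0.19 (adjusted p = 0.105), and Sdhd of succinate dehydrogenase differed by 0.49 ± 0.17. Both were called after TAC, at 1.07 (adjusted p = 0.0195) and 0.86 (adjusted p = 0.0275), as was Ndufb4 at 1.33 (adjusted p = 0.0250). The factors that copy and express mitochondrial DNA (20 tested) had 3 above and 4 below. Ssbp1, the single-strand binding protein of mitochondrial DNA, read 9.53, 9.31 and 9.63 against 8.67, 8.65 and 9.05 (-0.70 ± 0.17, adjusted p = 0.118), and Nrf1, a transcription factor of respiratory genes, differed by -0.39 ± 0.16. Fatty acid oxidation, the main fuel pathway of the heart, had 30 tested genes, 3 above and 1 below, with a median of 0.08. Hadhb, of the trifunctional protein, differed by 0.39 ± 0.15 and Hadh by 0.65 ± 0.22, neither called.

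Genes of the ATF4 response are switched on by the kinases that sense missing amino acids or unfolded proteins. Of 11 tested genes 1 was called (Asns), 4 lay above and 1 below, and the median was 0.09, which became -0.16 among probes detected on all 12 arrays and 0.20 without shControl array 2. Trib3, a pseudokinase, was undetected with shControl (5.19, 5.04 and 4.68) and detected with shUhrf1 (5.57, 5.93 and 6.36), at least 1.51-fold apart, with a fitted difference of 0.98 ± 0.25 (adjusted p = 0.137). Mthfd2, of mitochondrial one-carbon metabolism, read 6.08, 6.44 and 6.35 against 6.98, 7.16 and 7.60 (0.96 ± 0.26, adjusted p = 0.153). Atf5, a transcription factor of this response, differed by 0.58 ± 0.18 (adjusted p = 0.177). These 4 were apart in sham, and after TAC Asns, Trib3, Mthfd2 and Atf5 differed by 0.12, -0.07, 0.51 and 0.08, with none called. The test of the difference between the surgeries had adjusted p from 0.195 to 0.752 for the 4. Ddit3, which encodes the stress factor CHOP, lay on the other side at -0.44 ± 0.17, with all shUhrf1 arrays below. Of the 14 genes of the unfolded protein response, which share Ddit3 with this list, 3 lay above and 2 below. Hspa5, the main chaperone of the endoplasmic reticulum, read 5.94, 5.72 and 5.51 against 6.47, 6.36 and 6.51 (0.73 ± 0.18, adjusted p = 0.118) and was called after TAC (1.17, adjusted p = 0.0120).

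Immediate early genes answer stimulation within minutes. Of 17 tested, 0 were called, 5 lay above and 0 below, and the median was 0.33. It was 0.17 without background correction, 0.097 in the authors' value table and 0.49 without shUhrf1 array 2. Behind Fosb came Fos, at 10.50, 10.65 and 10.88 against 11.58, 11.29 and 11.31 (0.72 ± 0.19, adjusted p = 0.144), and Egr1, at 11.70, 11.88 and 11.84 against 12.78, 12.27 and 12.53 (0.72 ± 0.19, adjusted p = 0.146). On the TAC arrays the differences were 0.75 for Fos and 0.76 for Egr1, each with an adjusted p just over the threshold (0.05003). The list's mean deviation was -0.49 to -0.26 with shControl and -0.13 to 0.18 with shUhrf1.

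The circadian clock is a loop in which Per and Cry proteins repress their own activators. Of 13 tested clock genes and outputs 0 were called, 5 lay above and 0 below, and the median was 0.33. Ciart, a repressor of the loop, read 7.28, 7.09 and 7.28 against 8.07, 8.85 and 8.47 (1.25 ± 0.45, adjusted p = 0.236). Per2 differed by 0.88 ± 0.28, Bhlhe40 by 0.54 ± 0.16 and Per1 by 0.53 ± 0.18, with adjusted p from 0.168 to 0.220. After TAC the same 4 gave 0.51, 0.54, 0.01 and 0.04. The mean deviation was -0.17 to -0.05 with shControl and 0.22 to 0.30 with shUhrf1.

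The sarcomere and Z-disc list had 23 tested genes, of which Lmod2 was called, 6 lay above and 1 below, with a median of 0.07. Myom1, an M-band protein, differed by 0.35 ± 0.13 and cardiac actin Actc1 by 0.33 ± 0.16, both with separate groups. Calcium handling had 4 above and 2 below of 16. Pln, which encodes phospholamban, the brake on the calcium pump of the sarcoplasmic reticulum, read 12.64, 12.71 and 12.43 against 13.20, 13.40 and 13.43 (0.75 ± 0.17, adjusted p = 0.106). Ryr2, the calcium release channel, read 12.48, 12.58 and 12.30 against 12.75, 12.95 and 13.06 (0.47 ± 0.14, adjusted p = 0.163), while the pump gene Atp2a2 differed by 0.12 ± 0.12. After TAC Pln and Ryr2 differed by 0.53 and 0.45, neither called. Intercalated disc genes, which join cardiomyocytes end to end, had 4 above and 1 below of 12. Ctnnb1 (beta-catenin) read 11.09, 10.93 and 11.07 against 11.82, 11.58 and 11.56 (0.63 ± 0.15, adjusted p = 0.123), and Tjp1 (0.65 ± 0.25), Pkp2 (0.41 ± 0.16) and Dsg2 (0.40 ± 0.16) lay on the same side. Of 16 ion channel genes 5 lay above and 0 below, with Kcnj11 (0.56 ± 0.15) and Kcnj2 (0.76 ± 0.30) higher and Kcne1 (-0.70 ± 0.32) lower in value, none called.

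Genes of hypertrophy and the fetal heart were mixed: of 17 tested 0 were called, 1 lay above and 2 below, with a median of 0.03 that became -0.29 without shControl array 3 and 0.18 without shControl array 2. Nppb, which encodes the natriuretic peptide BNP, read 12.85, 13.46 and 13.11 against 12.52, 12.54 and 12.44, a difference of -0.64 ± 0.20 (adjusted p = 0.181). Its 3 shUhrf1 arrays lay below all shControl arrays, and after TAC it differed by -0.61 (adjusted p = 0.112). Nppa, the atrial peptide, read 12.99, 13.38 and 12.14 against 13.78, 12.75 and 13.10, and the groups overlapped (0.37 ± 0.29). Myh7, the fetal myosin heavy chain, read 6.65, 7.54 and 6.78 against 8.10, 7.97 and 7.30, overlapping as well (0.80 ± 0.52, adjusted p = 0.530), and the adult chain Myh6 differed by 0.05 ± 0.13. Skeletal actin Acta1 differed by -0.22 ± 0.26, and shControl array 2 alone was high at 13.75, with 12.53 and 12.56 beside it. Myl7, an atrial light chain, varied from 6.49 to 9.83 on the shUhrf1 arrays and from 6.68 to 8.91 on the shControl arrays.

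DNA methylation genes and Uhrf1 partners mostly had small negative differences. Of 17 tested 0 were called, 0 lay above and 4 below, 5 had a positive difference, and the median was -0.11. Pml read 6.35, 6.23 and 6.31 against 5.99, 6.01 and 5.93 (-0.32 ± 0.14, adjusted p = 0.350), with Ehmt1, a histone H3 methyltransferase, at -0.51 ± 0.24 and Cbx5, the heterochromatin protein HP1 alpha, at -0.27 ± 0.16. Dnmt1, which Uhrf1 recruits, read 6.09, 5.77 and 6.33 against 5.61, 6.05 and 6.03 (-0.17 ± 0.20), and Uhrf2, the paralogue of Uhrf1, differed by -0.16 ± 0.19. Both overlapped between the groups. Dnmt3a was not among the tested genes. The mean deviation of the list was -0.04 to 0.03 with shControl and -0.13 to -0.07 with shUhrf1, so the groups did not overlap.

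Germline genes that DNA methylation is known to silence were mostly undetected. Of 24 germline genes on the array 3 were tested. Rhox5, a homeobox gene of the germline, read 6.75, 6.33 and 5.92 against 5.76, 5.32 and 4.86 (-1.02 ± 0.28, adjusted p = 0.153). Xlr4a, of an X-linked multigene family whose copies may share probes, read 4.28, 6.82 and 6.50 against 6.86, 8.19 and 7.33 (1.59 ± 0.75, adjusted p = 0.371), with shControl array 1 far below arrays 2 and 3. Mov10l1 differed by 0.05 ± 0.14. Of 12 tested imprinted genes 0 lay above and 0 below, and the median was -0.05, which became 0.061 without shUhrf1 array 2 and 0.13 without shControl array 2. Ube3a differed by 0.72 ± 0.27, and Igf2 (-0.57 ± 0.42) and Grb10 (-0.26 ± 0.17) lay on the other side, none called. Interferon and viral RNA sensing genes, which transcripts of transposons can trigger, had 0 above and 0 below of 16, with a median of -0.09 that became 0.054 without shUhrf1 array 2 and -0.32 without shUhrf1 array 1. Isg15 read 5.86, 5.45 and 5.19 against 5.54, 4.33 and 4.91, overlapping (-0.57 ± 0.27, adjusted p = 0.366). The array with the lowest Isg15 is shUhrf1 array 2, the one with the low macrophage and endothelial markers.

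Hairpin RNAs use the cell's own microRNA machinery, so its genes were listed. Of 15 tested 0 were called, 4 lay above and 5 below, and the median was 0.02, from -0.11 without shUhrf1 array 2 to 0.14 without shUhrf1 array 1. Snd1, a nuclease linked to the RNA-induced silencing complex, read 6.65, 6.54 and 6.38 against 6.25, 5.63 and 5.88 (-0.61 ± 0.17, adjusted p = 0.153). Xpo5, which exports hairpin precursors from the nucleus, read 6.14, 6.28 and 6.30 against 5.87, 5.75 and 5.91 (-0.40 ± 0.14, adjusted p = 0.237), and Tnrc6a, a partner of Argonaute, differed by 0.44 ± 0.14. Dgcr8, the partner of Drosha, differed by -0.36 ± 0.15 in sham and by 0.78 (adjusted p = 0.0239) after TAC. The difference between the surgeries had an adjusted p of 0.162 for Dgcr8.

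Cytosolic ribosomal protein genes mostly had small negative differences. Of 50 tested 0 were called, 0 lay above and 9 below, 6 had a positive difference, and the median was -0.20. Rpl29 read 11.14, 10.75 and 11.23 against 10.66, 10.48 and 10.48 (-0.50 ± 0.17, adjusted p = 0.210), and Rps19 read 12.81, 12.42 and 12.57 against 12.17, 12.09 and 12.33 (-0.41 ± 0.14, adjusted p = 0.222). Rpl32 and Rps21 gave -0.36 ± 0.12 and -0.36 ± 0.13. On the TAC arrays the median of the list was also -0.20, with 2 above and 25 below. Over all genes 13.2% lay above and 10.7% below on those arrays. The mean deviation of the list overlapped between the sham groups, at -0.09 to 0.15 with shControl and -0.21 to -0.07 with shUhrf1. Proteasome genes (27 tested) had 3 above and 4 below, led by Psmc6 (0.84 ± 0.23) and Psmd6 (0.69 ± 0.27), which were called after TAC at 1.10 (adjusted p = 0.0289) and 1.29 (adjusted p = 0.0284).

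Cell cycle genes were near background in sham: of 24 on the array 13 were tested, and 1 or 2 of the 24 were detected on each sham array, against 11 to 17 on the TAC shControl arrays. At such levels no sham difference of the list could be measured. Endothelial markers had a median of 0.25, 0 above and 0 below of 15 in sham and -1.37, 13 below and 5 called lower after TAC. Cdh5, the cadherin of endothelial junctions, read 5.98, 5.45 and 5.98 against 6.95, 5.76 and 6.78 in sham (0.70 ± 0.32) and differed by -1.62 (adjusted p = 0.0247) after TAC. Pecam1 read 6.91, 6.91 and 6.995 against 7.75, 6.25 and 7.78 in sham (0.32 ± 0.35). Without shUhrf1 array 2 the sham median of the endothelial list was 0.79, and without shUhrf1 array 1 it was 0.053. Fibroblast markers had a median of 0.24 in sham, which was 0.63 without that array, with Col1a1 at 0.38 ± 0.28 and detected on 1 of the 6 sham arrays. Macrophage markers had a median of -0.33, and 0.11 without that array, with C1qa at -0.86 ± 0.33 and Adgre1 at -0.17 ± 0.28. The test of the difference between the surgeries called 0 genes (866 at an unadjusted p under 0.05, 9.9%). Without sham shUhrf1 array 2 it called 99 of 8746 genes, among them 10 of the 15 tested endothelial markers. That array had stood apart by its low values of these same markers, so the 10 calls are no separate evidence. Without TAC shControl array 1 the test called 29 genes.

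**Figure D4:**
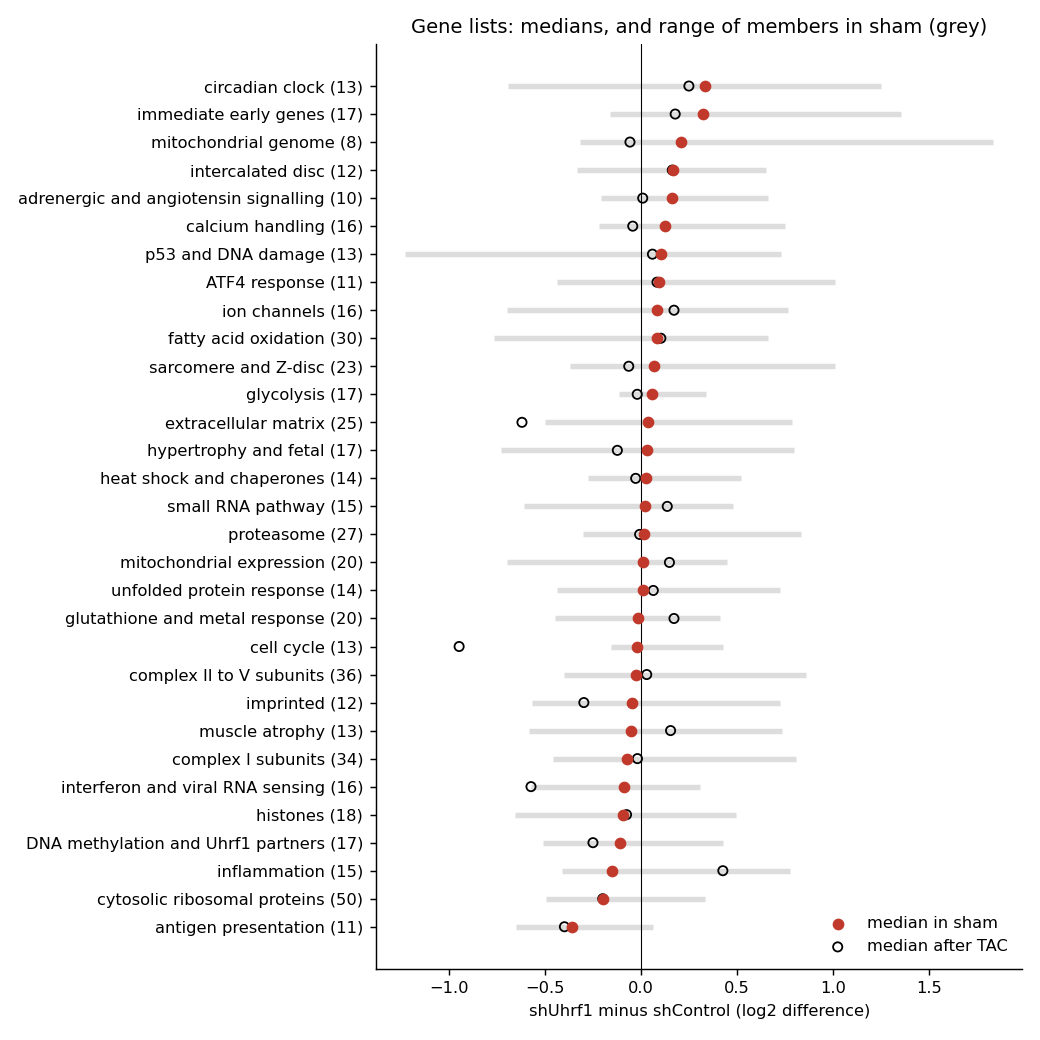
Process lists with at least 8 tested members (number tested in brackets): median hairpin difference in sham (red) and after TAC (open circles), and the range of members in sham (grey bars), all in log2 units. The sham medians lie between -0.36 and 0.33, and most lists have members on both sides of 0; cell cycle genes are near background in sham.

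Set beside the TAC arrays, which share no array with the sham comparison but do share its estimate of spread and its normalization, the sham differences pointed the same way for 5307 of 8746 genes (60.7%), with a Pearson correlation across genes of 0.24. Genes are not independent of each other, and no p is given. The brightest raw intensity also split the arrays by hairpin in both sets, and its part in the shared direction was not tested. After TAC 134 genes were higher (1.53%) and 119 lower (1.36%) with shUhrf1. Under median scaling these became 257 higher and 45 lower, and the median of all genes moved to 0.28. The 253 calls became 9, 11, 36 and 45 without TAC shControl array 2, TAC shUhrf1 array 3, TAC shUhrf1 array 2 and TAC shControl array 3, 157 without sham shControl array 3, and 384 without sham shUhrf1 array 2, so the shares below that start from TAC calls describe the lists of the fit with all arrays. Among the 566 genes higher in sham at an unadjusted p under 0.05, 81.6% had a positive difference after TAC, and among the 588 lower ones 69.6% had a negative one. The 134 genes called higher after TAC were positive in sham in 122 cases (91%), with a median sham difference of 0.44. Of the 119 called lower after TAC, 54 were negative in sham (45.4%), with a median sham difference of 0.03. Over all 8746 genes 4340 were positive in sham. Of the 8746 genes, 325 had all 3 shUhrf1 arrays above in both sets and 150 below in both. Another 26 and 37 were above in one set and below in the other. In sham alone 10.2% of all genes lay above and 10.4% below, and after TAC alone 13.2% and 10.7%. For 158 of the 8746 genes, ND4L and Mxi1 among them, every one of the 6 shUhrf1 arrays lay above every one of the 6 shControl arrays. For 62 it lay below. Lmod2 belongs to the 158 as well.

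**Figure D5:**
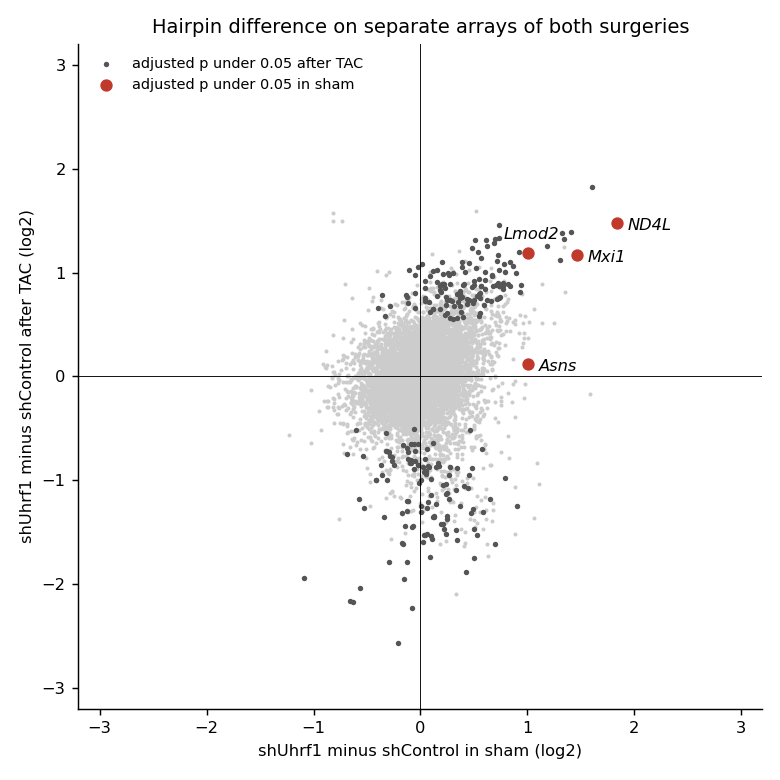
Hairpin difference in sham (x axis) against the hairpin difference after TAC (y axis), log2, 1 point per gene. Of all 8746 genes 4340 lie to the right of 0 in sham. Genes called after TAC (dark) that are higher lie mostly to the right of 0 in sham, 122 of 134; those that are lower lie on both sides, 54 of 119 to the left; Asns lies near 0 after TAC.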

How the data were processed

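Biotin-labelled cRNA, made from RNA of left-ventricular cardiomyocytes, was read on Illumina bead arrays, as the labels describe. The deposited non-normalized table gives 1 linear intensity for each probe on each array. A detection p-value stands beside every intensity, per the file headers. The authors' value table is on a log2 scale; lumi is named in the submitters' processing notes, with version and settings not given in the sources used here. It has the same median (7.50) on every array, ranks the probes of each array as their intensity does, and served as an alternative.

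Intensities were processed with neqc of limma 3.58.1 in R 4.3.3 (background estimated from the detection p-values, offset 16, quantile normalization). Probes detected at p under 0.01 on at least 3 of 12 arrays entered 1 fit of all 12 arrays with a mean per group (lmFit, eBayes), so that the groups share 1 spread. p-values were Benjamini-Hochberg adjusted over the 15118 probes, with a threshold of 0.05. A gene is its tested probe with the highest mean. Of 45281 probes 34885 have 1 symbol, 18 several and 10378 are unnamed here; 34807 were matched to RefSeq by Entrez ID. Where a gene was undetected on all arrays of a group, the fold is a bound from the lowest detected signal. The fit was checked on simulated data with independent noise for each probe, which cannot show how an outlying array moves the calls. The number of arrays limits the precision.

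Genes named are those called, the 12 with the smallest p in each direction, 15 preset genes (of which 14 were tested), and up to 4 members with the smallest p of each list described. The 32 process and 14 marker lists, and the comparison itself, were chosen with earlier results of these data known, so counts over them are descriptions. No sample or table column was left unmapped. Promoter windows are RefSeq's on GRCm38.p6; 3 of the 4 called genes matched an entry.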

Additional observations from a re-analysis of the deposited data

How the results depend on the processing

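The 22 alternatives were 5 other settings of normalization and filter, 1 use of the authors' table, 4 other fits and the omission of each of the 12 arrays. The count of 4 genes in sham became 1 with quantile normalization and no background correction, 24 in the authors' value table (12 higher and 12 lower), 1 among probes detected on all 12 arrays, 0 with the 2 groups fitted alone, 23 with trended and robust moderation (21 higher) and 57 with array weights (38 higher). It lay between 1 and 5 when 1 array was left out, and was 3 to 6 in the other settings. Similar counts did not always hold the same genes. Scaling by the median called Fosb, ND4L and ND6. With dim probes kept 6 were called, 3 of them lower. The 24 of the authors' table included ND4L and Mxi1 but not Lmod2 or Asns. ND4L was called in 21 of the 22. Lmod2, Asns and Mxi1 were not among the probes detected on all 12 arrays, and of the other 21 alternatives Lmod2 was called in 12, Asns in 11 and Mxi1 in 7. The 4 differences kept their sign wherever they were fitted. Asns, Lmod2 and Mxi1 differed by 0.34, 0.35 and 0.64 without background correction and by 0.17, 0.17 and 0.35 in the authors' table, with the cause not tested. With the replicate number as a block 3 genes passed in sham, Mxi1 having an adjusted p of 0.0736, and 215 after TAC against 253. Same-numbered sham arrays deviated from their group means with correlations of -0.12 to 0.02. Over all groups 4 of 18 pairs exceeded 0.1, the highest at 0.25. Differently numbered arrays were not compared, so whether the numbers pair the samples was not tested.

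The TAC count of 253 became 55 when dim probes were kept and 388 with trended and robust moderation, and ran from 9 to 384 without 1 array. The count of genes that differ between the surgeries, 0, became 1 when they were kept and ran from 0 to 99 without 1 array. Scaling each array by its median took the median difference of all genes from -0.0028 to 0.045 in sham and from 0.013 to 0.28 after TAC. The difference in detected probes was 882.3 at a detection p under 0.05 and 426.5 to 771.2 without 1 array.

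Of the named genes none that was called reversed. The sign of 6 uncalled ones turned without 1 array: Myh6 (-0.012 without shControl array 1, range up to 0.0897), Acta1 (0.183 without shControl array 2, range from -0.424), Myl7 (-0.387 without shControl array 3 and -0.455 without shUhrf1 array 1, range up to 1.22), and, without shUhrf1 array 2, Adgre1 (0.0822, range from -0.364), C1qc (0.142, range from -0.711) and Mov10l1 (-0.0207, range up to 0.125), with the cause not tested. No plain t-test and no slide block was run, because no source names either. Small differences in dim genes are limited by signal over background.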
